A study of Mus musculus with 8 samples.

Results

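The source cells compared here are cultured neural stem cells (NSC) and primary small intestinal epithelial cells (IEC), the somatic starting populations of a chemical reprogramming study in the mouse. They were taken by their labels as 1 library a side, 2 of the 8 libraries of the series, with no further selection. Both populations came from mid-gestation embryos (E13.5). The NSC were at passage 2 and carry the strain label C57BL/6J-Tg(GOFGFP)11Imeg/RbrcxICR, whereas the IEC were labelled as primary cells and carry the label C57BL/6J-Tg(GOFGFP)15Imeg/RbrcxICR. GOFGFP is a green fluorescent reporter driven by regulatory sequence of the pluripotency gene Pou5f1, and all cells of both groups share it. The number that separates these strain labels steps by 1 from sample to sample, so it may not denote separate strains. The remaining 6 libraries are chemically induced pluripotent stem cell (CiPSC) lines, 3 from NSC and 2 from IEC, and R1 embryonic stem cells (ESC). They are used below only as a reference for the level of each gene in other cells. The labels do not say how many embryos each source was pooled from. Culture, passage and tissue differ together between the sources and cannot be told apart.

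Neural stem cells of the embryonic brain are radial glia, elongated progenitors that keep Sox2 and Notch signalling active and give rise to neurons, later to astrocytes and oligodendrocytes. Grown in culture they are usually kept dividing with epidermal and fibroblast growth factors. The embryonic gut is a tube of endodermal epithelium wrapped in mesenchyme, smooth muscle, nerves and an outer mesothelium. Liver, pancreas and stomach arise from the same endoderm beside it, and transcription factors such as Cdx2 mark the intestinal part. A dissected gut can hold any of these layers, so the labels were set beside markers of each. The marker lists were chosen with earlier results of these data known, so their counts are a description and not a test.

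Each gene has a level in FPKM, the number of fragments scaled to transcript length and to the mapped fragments of the library, together with its 95% interval from the deposited files. Depth estimated from these intervals was 9.35 M fragments in NSC and 10.1 M in IEC. On a transcript of 1500 bases 3 fragments correspond to an FPKM of 0.214 in NSC and 0.198 in IEC, so levels below about these values are near the detection limit. At FPKM 1 or more there were 12595 genes in NSC and 14020 in IEC. Mitochondrial transcripts held 11.6% of the FPKM sum in NSC and 4.65% in IEC. Differences are on the log2(FPKM + 1) scale and are written as NSC minus IEC, which understates the change of low genes. With 1 library a side there is no replicate check and no p-value, and the intervals cover counting and assignment error within a library only. In RNA from many cells, fewer cells of a type and less RNA per cell cannot be told apart.

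The source libraries differed widely, and more genes were higher in IEC than in NSC. A gene was called when it differed at least 4-fold on that scale, reached FPKM 5 in the library where it was higher and had intervals that did not overlap. Of 11457 genes that reached FPKM 5 in either library, 738 (6.44%) were called higher in NSC and 1509 (13.2%) higher in IEC. These shares are of genes that reached FPKM 5, whereas the list and family counts below also include members that did not. The same rule called 50 of 9357 genes (0.534%) between NSC-CiPSC lines 1 and 2, 26 of 9289 (0.280%) between lines 1 and 3, and 4 of 9215 (0.0434%) between lines 2 and 3. Between IEC-CiPSC lines 10 and 13 it called 0 of 9154 genes. These pairs are lines of pluripotent cells and do not measure the spread between preparations of NSC or of IEC. The median difference over all genes tested was 0.13. The interval condition removed few genes: of 2276 that differed at least 4-fold, 29 had overlapping intervals. Among the calls 442 of those higher in IEC were listed at 0 in NSC, and 54 of those higher in NSC were listed at 0 in IEC. A gene listed at 0, such as Grm5 in IEC, has an interval of 0 to 0 there, so the condition asks little of it. Differences of 64-fold or more on the log2(FPKM + 1) scale were reached by 26 genes toward NSC and 144 toward IEC. Of the genes called higher in IEC, 560 were below FPKM 1 in all other 7 libraries, and of those called higher in NSC 167 were. The 10 genes just inside the limit differed by 2.00 to 2.01 and the 10 just outside by 1.99 to 2.00, so genes near it are not separated by the call.

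**Figure D1:**
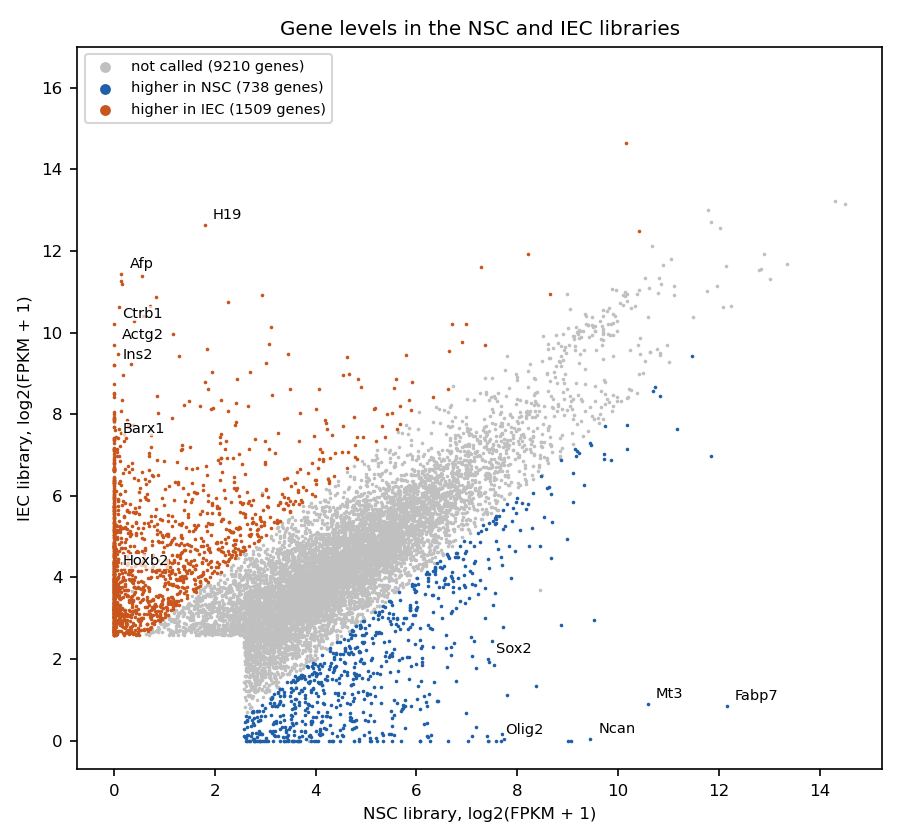
Level of each of 11457 genes in the NSC library (x axis) and the IEC library (y axis), both log2(FPKM + 1), with the 738 genes called higher in NSC in blue and the 1509 called higher in IEC in orange. The column of orange points at an x value of 0 is made of genes listed at 0 in NSC, and Fabp7 lies farthest to the right among the blue points.

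The most abundant transcripts already set the populations apart. Outside mitochondrial, ribosomal protein and selenoprotein genes, the highest in NSC was Fabp7, the brain fatty acid binding protein of radial glia, at 4546 (interval 4489.8 to 4601) against 0.790 in IEC. Ckb, brain-type creatine kinase, was at 3678 in NSC and 124 in IEC. Highest in IEC was H19, an imprinted noncoding RNA of fetal tissues, at 6329.7 against 2.49 in NSC. Ftl1 and Fth1, the ferritin chains that store iron, were at 5752 and 4436 in IEC and at 1361 and 1634 in NSC. Eef1a1, a translation elongation factor, was among the 10 most abundant in both, at 4165 in NSC and 6038 in IEC. Tmsb4x, an actin-binding peptide, was nearly level, at 2219 in NSC and 2249.6 in IEC, with intervals that overlapped.

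Radial glia genes were high in NSC. Of 20 listed, all reached FPKM 5 in either library, 14 were called higher in NSC and 0 higher in IEC, where 6.44% of all genes tested were called higher in NSC. The list's median difference was 3.27, with a median level of 55.7 in NSC and 3.57 in IEC. Fabp7, on chr10:57784881-57788450 of mm10, had the largest difference of all named genes toward NSC, 11.31. It was between 0 and 5.78 in the 6 CiPSC and ESC libraries, so its level in NSC stood apart from the other 7. Slc1a3, the glial glutamate transporter GLAST, was at 739 in NSC and 6.77 in IEC. Mt3, a brain metallothionein, was at 1538 in NSC and 0.861 in IEC. Sox2, a transcription factor that maintains neural and pluripotent progenitors, was at 171 in NSC and 3.00 in IEC. Unlike Fabp7, Sox2 was as high in the pluripotent libraries, from 138 in NSC-CiPSC line 2 to 238 in IEC-CiPSC line 10. Nes, the intermediate filament nestin, was at 49.8 in NSC and 5.61 in IEC. Nr2e1, a nuclear receptor that keeps neural stem cells dividing, was at 11.6 in NSC and listed at 0 in IEC.

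Not every radial glia marker separated the sources. Vim, the filament vimentin shared by radial glia and mesenchyme, was at 827 in NSC and 656 in IEC. Tnc, the matrix protein tenascin C, was at 21.4 in NSC and 35.0 in IEC. Prom1, which encodes the stem cell surface protein prominin, was at 4.13 in NSC and 6.21 in IEC. Ptn, the growth factor pleiotrophin, was at 813 in NSC and 382 in IEC, a difference of 1.09 that lay inside the limit of the call.

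Astroglial genes were also high in the NSC library. Of 15 listed, 10 were called higher in NSC and 2 higher in IEC, beside 6.44% and 13.2% of all genes tested. The list's medians were 91.0 in NSC and 4.22 in IEC. Ncan and Bcan, brain proteoglycans of the matrix around glia, were at 696 and 204 in NSC. In IEC Ncan was at 0.0268 and Bcan was listed at 0. Acsbg1, a fatty acid activating enzyme of brain, was at 531 in NSC and listed at 0 in IEC. Markers of mature astrocytes were present at lower levels, Gfap at 12.2 and Aqp4, the water channel of astrocyte endfeet, at 11.2 in NSC, against 0.0767 and 0.345 in IEC. Apoe, a lipid carrier made by several cell types, astrocytes and macrophages among them, went the other way and had 297 in NSC and 3919 in IEC. In the CiPSC lines Apoe was between 941 and 1188, and in ESC it was at 512. Clu, the chaperone clusterin, was likewise higher in IEC, at 276 against 34.7. Mlc1, a membrane protein of astrocyte junctions and among the 15 largest differences toward NSC, was at 169 in NSC and listed at 0 in IEC.

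Several oligodendrocyte lineage factors were higher in NSC. Of 13 listed genes, 8 reached FPKM 5 in either library. Of the 13, 4 were called higher in NSC and 2 higher in IEC, beside 6.44% and 13.2% of all genes tested. The median difference was 0, with 6 differences in each direction. Olig1 and Olig2, factors that specify motor neuron and oligodendrocyte progenitors, had levels of 515 and 191 in NSC and were listed at 0 in IEC. Sox8, a glial factor, was at 66.4 in NSC and 0.704 in IEC. Nkx2-2, another progenitor factor, was at 14.5 in NSC and 1.38 in IEC. Sox10, which drives oligodendrocyte and neural crest fate, and the myelin genes Mog and Mag were listed at 0 in NSC. Mbp, the myelin basic protein gene, which also has non-myelin transcripts in blood cells, was at 0.680 in NSC and 8.36 in IEC. Pdgfra, a receptor of oligodendrocyte precursors and of mesenchyme, was at 1.45 in NSC and 38.4 in IEC. Olig1 stayed between 5.02 and 5.63 in the 5 CiPSC lines and was at 0.347 in ESC.

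Neuronal genes were a minor component of NSC. Of 14 listed neuronal genes, 5 were called higher in NSC and 0 higher in IEC, beside 6.44% and 13.2% of all genes tested. The list's medians were 3.11 in NSC and 0.640 in IEC. Map2, a dendritic microtubule protein that neural progenitors also transcribe, was at 139 in NSC and 4.42 in IEC. Gap43, a growth cone protein, was at 95.2 in NSC and 3.79 in IEC. Of the 14, 6 reached FPKM 5 in NSC and 0 in IEC, while Dcx, Rbfox3 and Stmn2 were low in both libraries. Dcx, the migrating neuroblast marker doublecortin, was at 1.40 in NSC and 0.171 in IEC. Rbfox3, which encodes the NeuN antigen, was at 0.966 in NSC and listed at 0 in IEC. Stmn2, a neuronal stathmin, was at 0.179 in NSC and 0.663 in IEC.

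Among 16 neurogenic factors, of which 4 reached FPKM 5, 2 were called higher in NSC, beside 6.44% of all genes tested, and 0 higher in IEC. Dlx1, a homeobox factor of the ventral telencephalon, was at 6.40 in NSC and listed at 0 in IEC. The neighbouring family member Dlx2 was at 2.46 in NSC and did not reach FPKM 5. Sox4 and Sox11, which act in newborn neurons and in many other embryonic tissues, were found in both sources. Sox4 was at 96.2 in NSC and 44.3 in IEC, and Sox11 was at 16.2 and 3.84.

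Positional genes of NSC were those of the forebrain. Of 12 forebrain patterning genes, 5 were called higher in NSC and 1 higher in IEC, beside 6.44% and 13.2% of all genes tested. The list's medians were 7.42 in NSC and 0.0686 in IEC. Lhx2, a LIM homeobox factor of the cortex and eye field, was at 56.9 (interval 53.0 to 60.8) in NSC and 1.85 in IEC. Emx2, a factor of the dorsal telencephalon, was at 24.6 in NSC and 0.588 in IEC. Otx1, a homeobox factor of forebrain and midbrain, was at 10.5 in NSC and listed at 0 in IEC. Nr2f2, a nuclear receptor of caudal forebrain and of mesenchyme, was at 0.101 in NSC and 28.3 in IEC. Its paralogue Nr2f1 was at 32.2 in NSC and 23.2 in IEC. Among 15 midbrain, hindbrain and spinal cord genes none reached FPKM 5 in either source. The highest of them in NSC was Gbx2, a hindbrain factor, at 0.301.

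**Figure D2:**
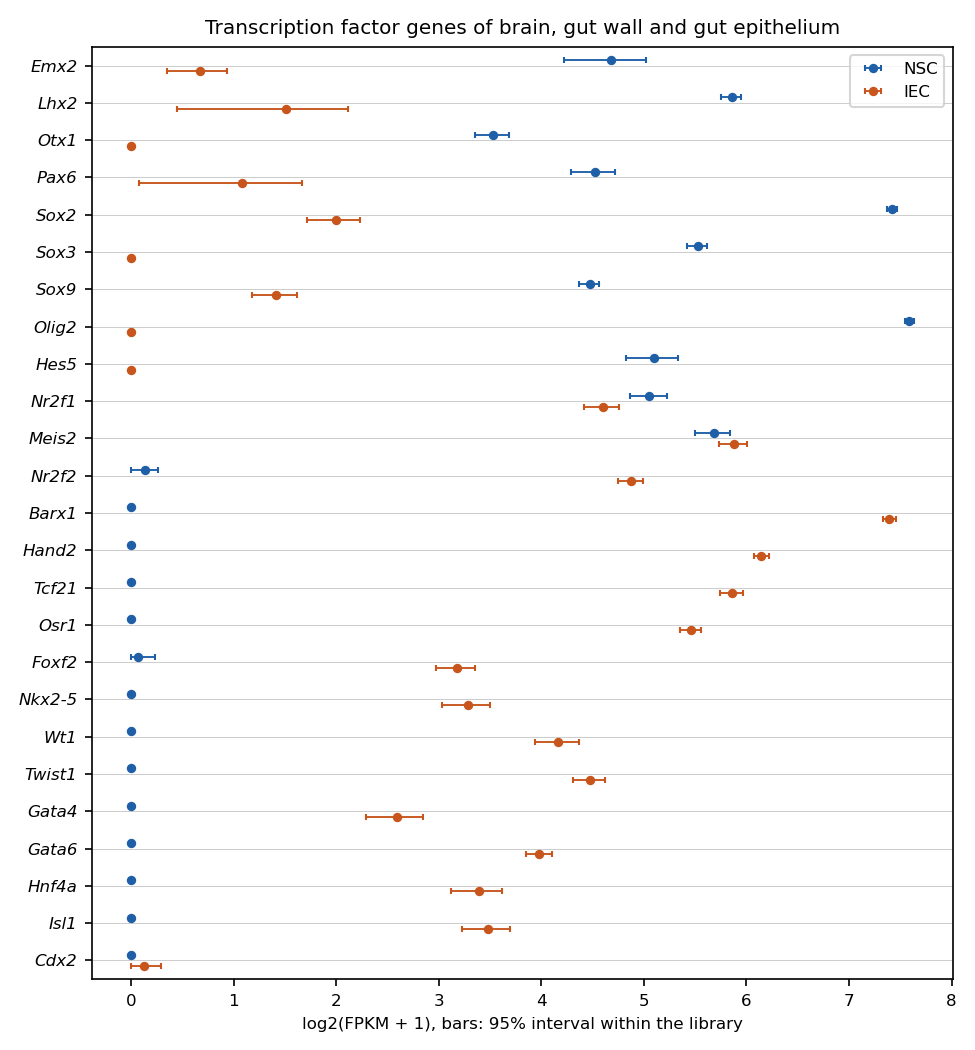
Levels, log2(FPKM + 1), of transcription factor genes of brain, gut wall and gut epithelium in NSC (blue) and IEC (orange), with bars for the 95% interval within the library. Forebrain and progenitor factors from Emx2 to Hes5 lie to the right in NSC, Nr2f1 and Meis2 lie close together, and gut wall factors such as Barx1 (167 in IEC) and Hand2 (69.7 in IEC) are listed at 0 in NSC, while Cdx2 is near 0 in both.

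Paralogues within the Sox and POU families differed in their levels. Of 19 Sox genes 11 reached FPKM 5 in either library. Of the 19, 7 were called higher in NSC and 0 higher in IEC, beside 6.44% and 13.2% of all genes tested. Sox1 and Sox3, the closest relatives of Sox2, had levels of 8.82 and 45.0 in NSC and were listed at 0 in IEC. Sox21, a partner of Sox2 in progenitors, was at 32.9 in NSC and 1.20 in IEC. Sox9, used both by radial glia and by gut and pancreatic progenitors, was at 21.2 in NSC and 1.67 in IEC. Sox12 was at 18.5 in NSC and 16.9 in IEC, with intervals that overlapped. Of 15 POU factors, taken by symbol after the data were seen, 4 reached FPKM 5 in either library. Of the 15, 3 were called higher in NSC and 0 higher in IEC, beside the same shares of all genes tested. The family's median difference was 0.03. Pou3f3, a brain POU factor, was at 74.4 in NSC and 0.0656 in IEC.

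Growth factor and Notch pathway genes were higher in NSC. Ligands of the epidermal and fibroblast growth factor families signal through receptor kinases to ERK, which induces Etv4, Etv5 and the feedback inhibitors of the Sprouty family and Dusp6. Notch receptors, once bound by Jagged or Delta ligands, release a fragment that acts with RBPJ on the Hes and Hey genes. Of 20 genes of these pathways, 11 were called higher in NSC and 0 higher in IEC, beside 6.44% and 13.2% of all genes tested. The list's median difference was 2.06. Of the 4 growth factor receptors 1 was called. Fgfr1 was at 76.3 in NSC and 51.6 in IEC. Fgfr2 was at 39.5 in NSC and 34.2 in IEC, with overlapping intervals. Egfr was at 26.2 and 11.9, while Fgfr3, the receptor typical of neural progenitors, was at 12.4 and 1.94 and was the gene called. Of the downstream genes Etv4, Etv5, Dusp6 and Spry4 were called. Etv5 was at 116 in NSC and 9.69 in IEC, and Etv4 was at 96.6 and 2.51. Dusp6, a phosphatase that acts on ERK, was at 73.8 in NSC and 14.9 in IEC. Spry4, a Sprouty inhibitor, was at 22.8 in NSC and 3.74 in IEC.

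In the Notch pathway the receptor Notch1 was at 26.0 in NSC and 2.14 in IEC. Notch3 was at 20.3 and 4.32, a difference of 2.00 at the limit of the call. Notch2 was lower in NSC, at 3.48 against 12.4 in IEC, and was not called. The ligand Jag1 was at 28.9 in NSC and 5.90 in IEC. Target genes were also higher in NSC, with Hey1 at 67.0 in NSC and 1.74 in IEC and Nrarp at 25.7 and 0.950. Hes5, a repressor that holds back neuronal differentiation, was at 33.3 (interval 27.3 to 39.3) in NSC and listed at 0 in IEC. It was at most 0.876 in the CiPSC and ESC libraries, so it was high in NSC alone. Hes1 was at 20.0 in NSC and 8.83 in IEC and was not called.

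The promoter of Hes5 is shown because it was the only one of 14 pathway genes with a RefSeq promoter that held the RBPJ letters GTGGGAA on either strand. The search covered the whole RefSeq promoter window, which runs past the start site beyond the stretch printed here. The 14 genes had 17 windows, of which 1 held the letters, beside 6.38% of all 32851 such windows. The 240 bases before the RefSeq start site are printed on the plus strand at chr4:154960683-154960922 (GRCm38.p6), with the matches in capitals at -226 to -220, on the reverse strand, and at -83 to -77. A match of letters is a description and not evidence of binding.
Hes5: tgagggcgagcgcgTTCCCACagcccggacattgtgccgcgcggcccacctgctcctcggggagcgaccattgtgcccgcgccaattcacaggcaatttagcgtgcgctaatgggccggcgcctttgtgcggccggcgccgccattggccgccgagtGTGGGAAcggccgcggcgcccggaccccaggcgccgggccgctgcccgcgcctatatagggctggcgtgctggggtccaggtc

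Cell cycle genes were at higher levels in NSC. All 22 proliferation genes had the higher level in NSC, and 6 were called, where 6.44% of all genes tested were called higher in NSC. The median level was 54.2 in NSC and 19.1 in IEC. Ccnd1 and Ccnd2, D-type cyclins that drive entry into the cycle, differed most, at 233 and 552 in NSC and at 14.9 and 56.7 in IEC. Ccnd2 was at most 2.98 in the CiPSC and ESC libraries. Mki67, the proliferation antigen, was at 46.5 in NSC and 11.4 in IEC. Mcm6, a subunit of the replicative helicase, was at 38.0 and 33.4, with intervals (35.6 to 40.4 and 31.3 to 35.6) that nearly met. Inhibitors of the cycle were split. Cdkn1a, the p53 target p21, was at 270.3 in NSC and 55.5 in IEC, while Cdkn1c, the imprinted inhibitor p57, was at 2.80 in NSC and 279.9 in IEC.

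Glutamate receptors, neurotransmitter transporters and potassium channels were counted as families, taken by symbol after the data were seen. Of 24 glutamate receptor genes, 9 reached FPKM 5 in either library. Of the 24, 6 were called higher in NSC and 0 higher in IEC, beside 6.44% and 13.2% of all genes tested. Of 25 neurotransmitter transporter genes, 4 were called higher in NSC and 0 higher in IEC, with a median difference of 0. Grm5, a metabotropic receptor, was at 75.7 in NSC and listed at 0 in IEC. Gria2, an AMPA receptor subunit, was at 39.3 in NSC and 0.0987 in IEC. Of 92 potassium channel genes, 21 reached FPKM 5 in either library. Of the 92, 11 were called higher in NSC and 4 higher in IEC, beside 6.44% and 13.2% of all genes tested. Their median difference was also 0, with 43 differences toward NSC and 41 toward IEC. Kcnj10, the glial channel Kir4.1 that clears potassium, was at 77.1 in NSC and 0.0900 in IEC. Kcnj8, the pore of vascular ATP-sensitive channels, was at 48.7 in IEC and listed at 0 in NSC.

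**Figure D3:**
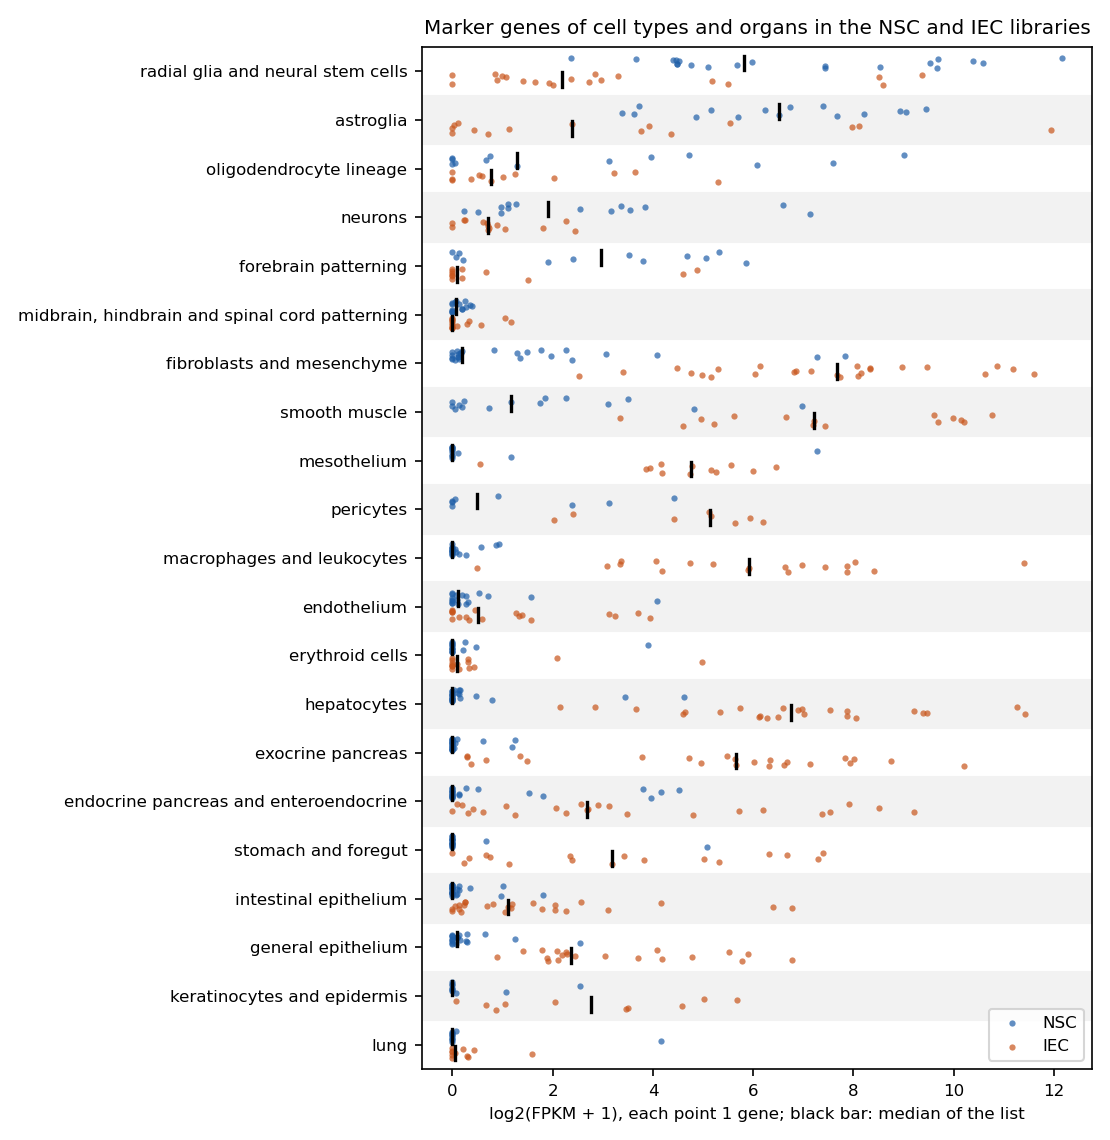
Levels, log2(FPKM + 1), of marker genes of cell types and organs, 1 point per gene, in NSC (blue) and IEC (orange), with the median of each list as a black bar. Radial glia and astroglia lie to the right in NSC, and fibroblasts, smooth muscle, macrophages, hepatocytes and exocrine pancreas lie to the right in IEC, where the intestinal epithelium list has a median FPKM of 1.17.

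Most listed genes of the intestinal epithelium were low in IEC. Of 25 listed, 4 reached FPKM 5 in either library, and these 4 were called higher in IEC and 0 higher in NSC. Over all genes tested 13.2% were called higher in IEC. Of the differences 23 were toward IEC and 1 toward NSC. The list's median level was 1.17 in IEC and 0 in NSC, and 14 of the 25 reached FPKM 1 in IEC. The part of the embryonic stage in the low levels was not tested. The 4 called genes were Fabp1, Tff3, Lgals4 and Clca1. Fabp1, a fatty acid binding protein of enterocytes and also of hepatocytes, was at 109 (interval 97.6 to 119) in IEC and listed at 0 in NSC. Tff3, the trefoil peptide of goblet cells, was at 82.9 in IEC and listed at 0 in NSC. Lgals4, a galectin of the gut lining, was at 16.8 and 1.02. Clca1, a secreted goblet cell protein, was at 7.54 and 0.0610. Genes more restricted to the intestine were low. Cdx2 was at 0.0912 in IEC and listed at 0 in NSC. Vil1, the brush border protein villin, was at 3.14 in IEC and 0.278 in NSC. Lgr5, the intestinal stem cell receptor, was at 1.08 in IEC and 0.966 in NSC. The library is therefore called by its label, IEC, without taking the label as its composition. As a part of the FPKM sum in IEC, the intestinal epithelium list held 0.0367%, the hepatocyte list 1.37%, the exocrine pancreas list 0.471%, the smooth muscle list 1.11% and the macrophage list 0.681%. In NSC none of these lists exceeded 0.0269%. The part that cells of these other types had in the 1509 genes called higher in IEC was not tested.

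General epithelial genes were present in IEC at moderate levels. Of 20 listed, 9 were called higher in IEC and 0 in NSC, beside 13.2% and 6.44% of all genes tested. The list's median was 4.13 in IEC. Krt8 and Krt18, the paired keratins of simple epithelia, were at 58.5 and 53.7 in IEC, and in NSC Krt8 was at 0.0635 and Krt18 was listed at 0. Epcam, an epithelial adhesion protein, was at 15.9 in IEC and 0.221 in NSC. Cdh1, E-cadherin, was at 11.9 and 0.203. These epithelial genes were not specific to IEC, since Cdh1 lay between 63.4 and 88.0 in the CiPSC and ESC libraries. Spint2, a membrane protease inhibitor, had the highest level of the list, 109 in IEC and 4.80 in NSC.

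Keratins of stratified epithelium accompanied those of simple epithelium in IEC. Of 10 genes listed for keratinocytes, 5 were called higher in IEC, beside 13.2% of all genes tested. Krt5 and Krt14, the pair of basal cells, had levels of 31.6 and 22.9 in IEC and were listed at 0 in NSC. Krtdap, a secreted protein of differentiating keratinocytes, was at 49.9 in IEC and listed at 0 in NSC. Their regulator Trp63 was at 0.584 in IEC. Over the whole keratin family, taken by symbol after the data were seen, 14 of 51 genes were called higher in IEC and 0 in NSC. The highest was Krt13, the keratin of oesophagus and forestomach, at 99.4 in IEC and listed at 0 in NSC.

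Endodermal transcription factors were low to moderate in IEC. Of 17 listed, 7 reached FPKM 5 in either library. Of the 17, 4 were called higher in IEC and 1, Sox9, higher in NSC, beside 13.2% and 6.44% of all genes tested. Gata6 and Gata4, zinc finger factors of endoderm and gut mesoderm, had levels of 14.8 and 5.04 in IEC and were listed at 0 in NSC. Hnf4a, a nuclear receptor of liver and gut, was at 9.47 in IEC and listed at 0 in NSC. Hhex, a factor of liver and pancreas buds and of blood cells, was at 5.29 in IEC and 0.0288 in NSC. Foxa1, Foxa2 and Foxa3, pioneer factors of endoderm, were at 3.11, 2.27 and 4.20 in IEC and were all listed at 0 in NSC. Pdx1, the pancreatic and duodenal factor, was at 0.524 in IEC.

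Genes of hepatocytes were among the highest of the IEC library. Of 24 listed, 23 were called higher in IEC and 0 higher in NSC, beside 13.2% and 6.44% of all genes tested. The median was 107 in IEC and 0 in NSC, and together the genes held 1.37% of the IEC library's FPKM sum. Afp, the fetal serum protein alpha-fetoprotein, was at 2755 (interval 2731 to 2778) in IEC and 0.108 in NSC. Alb, serum albumin, was at 2466 (interval 2443 to 2488) in IEC and 0.110 in NSC. These neighbouring genes, at chr5:90490714-90508907 (Afp) and chr5:90460889-90476603 (Alb) of mm10, had the largest differences toward IEC, -11.28 and -11.12. In the CiPSC and ESC libraries neither exceeded 0.105, so only IEC was high. Ahsg, the fetal plasma protein fetuin A, was at 594 in IEC and listed at 0 in NSC. The fibrinogen chains Fga, Fgb and Fgg were at 76.0, 129 and 119 in IEC and were listed at 0 in NSC. Trf, transferrin, was at 669.8 in IEC and 23.5 in NSC. Cps1, a urea cycle enzyme of later liver and of intestine, was at 3.41 in IEC and was the only member not called.

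The upstream sequences of Alb and Afp are shown because they are the most abundant hepatic genes and both hold the letters of the CCAAT box, CCAAT on either strand. These letters were found in 11 of 23 RefSeq promoter windows of listed hepatocyte genes, which belong to 10 of the 20 genes with such a window. Of all 32851 RefSeq promoter windows, searched whole as above, 37.4% held them, so they are common. The 150 bases before each start are printed from RefSeq (GRCm38.p6, plus strand) with the matched letters in capitals. The Alb stretch is chr5:90460720-90460869 with matches at -56 to -52 and, on the reverse strand, at -15 to -11, and the Afp stretch is chr5:90490564-90490713 with a reverse-strand match at -98 to -94.
Alb: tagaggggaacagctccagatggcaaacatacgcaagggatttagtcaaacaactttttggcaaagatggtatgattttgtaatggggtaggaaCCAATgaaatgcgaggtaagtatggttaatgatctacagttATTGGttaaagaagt
Afp: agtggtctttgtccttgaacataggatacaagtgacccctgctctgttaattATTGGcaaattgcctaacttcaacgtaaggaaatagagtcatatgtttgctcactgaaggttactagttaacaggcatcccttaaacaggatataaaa

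Yolk sac endoderm shares Afp, Ttr and Rbp4 with liver. Of 15 genes listed for it, 8 were called higher in IEC, beside 13.2% of all genes tested. Dab2, an endocytic adaptor that macrophages also make, was at 105 in IEC and 2.54 in NSC. The members not called were below FPKM 5 in both sources, among them Lrp2, the receptor megalin, at 0.981 and Apoa4 at 0.583 in IEC. Apolipoproteins, a family taken by symbol after the data were seen, were called higher in IEC for 11 of 31 genes and higher in NSC for 1, the mitochondrial protein gene Apoo. Apoa2, a component of high-density lipoprotein, was at 708 in IEC and 9.90 in NSC.

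Digestive enzymes of the exocrine pancreas were high in IEC. Of 23 listed genes, 17 were called higher in IEC and 0 higher in NSC, beside 13.2% and 6.44% of all genes tested. Of the 23, 17 were listed at 0 in NSC. The median was 49.1 in IEC. Ctrb1, chymotrypsinogen, was at 1184 (interval 1159 to 1210.1) in IEC and listed at 0 in NSC. Clps, the lipase cofactor colipase, was at 258, and Pnliprp1, a lipase-related protein, was at 243 in IEC. Cela2a, an elastase, was at 139.6, and Cpb1, a carboxypeptidase, was at 48.8. The trypsinogen genes Try5 and Prss2, at 428 and 226 in IEC, and the amylase gene Amy2a5, at 101, have near-identical copies whose shared reads the counting may have divided, so their separate levels are uncertain. Regulators of acinar cells were lower than the enzymes. Bhlha15, the factor Mist1, was at 0.598 and Nr5a2 at 1.56 in IEC.

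Hormone genes of endocrine cells were found in IEC as well. Of 24 genes listed for endocrine pancreas and enteroendocrine cells, 11 were called higher in IEC and 3 higher in NSC. Over all genes tested 13.2% were called higher in IEC and 6.44% higher in NSC. Ins2 and Ins1, the insulin genes, were at 592 and 239.6 in IEC, Gcg, glucagon, at 361, and Iapp, the peptide amylin, at 165. Sst, somatostatin, was at 26.8, Ppy, pancreatic polypeptide, at 51.5 and Pyy, peptide YY, at 72.3 in IEC. All of these hormone genes were listed at 0 in NSC, and Ins2 was listed at 0 in all of the other 7 libraries. Cck, cholecystokinin, and Ghrl, ghrelin, were lower than these, at 6.53 and 7.73 in IEC. The list holds genes of both cell types and does not tell islet from enteroendocrine cells. The genes called higher in NSC included Pax6 and Nkx2-2, factors shared by islet cells and the brain. Pax6 was at 22.0 in NSC and 1.11 in IEC. Isl1, a LIM factor of islets, of motor neurons and of gut mesenchyme, was at 10.2 in IEC and listed at 0 in NSC.

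Stomach genes were called higher in IEC for 9 of 17 listed and higher in NSC for 1, Sox21. Over all genes tested 13.2% were called higher in IEC and 6.44% higher in NSC. Barx1, the homeobox factor of stomach mesenchyme, was at 167 (interval 160.0 to 175) in IEC, listed at 0 in NSC and at most 1.28 in the other 6 libraries. Tff1 and Tff2, trefoil peptides of the gastric surface and glands, were at 157 and 101 in IEC. Pgc, the protease precursor progastricsin, was at 78.8 and Gif, gastric intrinsic factor, at 38.8. All 4 of these were listed at 0 in NSC. Cldn18, a tight junction protein of stomach and lung, was at 13.1 in IEC and listed at 0 in NSC. Atp4a, the acid pump subunit of parietal cells, was at 0.679 in IEC and 0.594 in NSC. Cym, the milk-clotting enzyme chymosin of young stomach, was chosen after its value was seen and was at 81.7 in IEC and listed at 0 in NSC.

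Mesenchymal genes held a larger part of the IEC FPKM sum than any other of the 44 lists. Of 25 listed, 22 were called higher in IEC and 1 higher in NSC, beside 13.2% and 6.44% of all genes tested. The listed genes had a median of 204 in IEC and 0.139 in NSC. They held 1.91% of the FPKM sum in IEC and 0.0630% in NSC. Col3a1, Col1a1 and Col1a2, the fibrillar collagens of connective tissue, were at 2331, 1873 and 1576 in IEC. In NSC the same collagens were at 0.113, 0.783 and 0.0787. Dcn and Lum, collagen-binding proteoglycans, were at 709 and 204 in IEC, where NSC had 0.0604 and 0. Sparc, a matrix glycoprotein, was at 3116 in IEC and 154 in NSC. Twist1, a mesenchymal transcription factor, was at 21.2 in IEC and listed at 0 in NSC. Thy1, a surface glycoprotein of neurons and of some fibroblasts, was the gene called higher in NSC, at 227 against 26.2. Prrx1, a factor of limb and facial mesenchyme, was at 16.0 in NSC and 9.54 in IEC.

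Other matrix genes were also counted. Of 44 collagen genes, taken by symbol after the data were seen and including those of the mesenchymal list, 19 were called higher in IEC and 1, Col9a3, higher in NSC. Of 19 basement membrane and matrix regulator genes, 12 were called higher in IEC and 0 higher in NSC. Over all genes tested 13.2% were called higher in IEC and 6.44% higher in NSC. Col4a1, a chain of basement membrane collagen, was at 173 in IEC and 3.28 in NSC. Mmp2, a gelatinase, was at 60.8 and 0.930. Mmp15, a membrane-bound metalloproteinase, was higher in NSC, at 135 compared with 4.81, whereas the other 5 called members of its family were higher in IEC.

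Smooth muscle genes were called higher in IEC for 14 of 15 listed, beside 13.2% of all genes tested. The list's medians were 148 in IEC and 1.25 in NSC. Acta2, the smooth muscle actin, was at 1734 (interval 1714 to 1754) in IEC and 3.80 in NSC. Actg2, the enteric smooth muscle actin, was at 823 in IEC and listed at 0 in NSC. Myh11, the smooth muscle myosin heavy chain, was at 172 in IEC and 0.0315 in NSC. Myocd, the coactivator that directs this programme with SRF, was at 9.18 in IEC and listed at 0 in NSC. Hspb6, a small heat shock protein, was the member not called, at 27.0 in NSC and 23.3 in IEC with overlapping intervals. The CArG box, the SRF site, was found in 1 of 12 RefSeq promoter windows of 11 listed smooth muscle genes (Myl9). It was found in 1.63% of all RefSeq promoter windows. Tnnt2, the cardiac troponin T gene listed under striated muscle, was at 142 in IEC and listed at 0 in NSC. Other genes of that list were low, with Tnnt3 at 3.11 and Myh7 at 0.518 in IEC, and only Myh8 at 30.9 was also called.

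Transcription factors of the gut wall were higher in IEC. Of 13 splanchnic mesenchyme genes 8 were called higher in IEC and 0 higher in NSC, beside 13.2% and 6.44% of all genes tested. Tcf21, a factor of visceral mesenchyme, was at 57.0 in IEC and listed at 0 in NSC. Nkx2-5, which marks the pyloric sphincter and spleen anlage besides the heart, was at 8.76 in IEC and listed at 0 in NSC. Foxf2, a forkhead factor of gut mesenchyme, was at 8.04 in IEC and 0.0470 in NSC. Meis2, a cofactor of Hox proteins, was high in both sources, at 50.2 in NSC and 57.7 in IEC with overlapping intervals. Hand2, a factor of enteric neurons and splanchnic mesenchyme, was at 69.7 in IEC and listed at 0 in NSC. Osr1 and Six2, listed under kidney but also made by foregut and stomach mesenchyme, had levels of 42.9 and 30.8 in IEC and were listed at 0 in NSC.

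Mesothelial genes were called higher in IEC for 10 of 12 listed, beside 13.2% of all genes tested. The list's median was 26.0 in IEC and 0 in NSC. Upk3b and Msln, surface proteins of the serosal lining, had levels of 86.5 and 62.4 in IEC and were listed at 0 in NSC. Wt1, the zinc finger factor of mesothelium, was at 17.0 in IEC and listed at 0 in NSC. Aldh1a2, which makes retinoic acid, was at 37.0 in IEC and listed at 0 in NSC. Gpm6a, a membrane glycoprotein shared with neurons, was called higher in NSC, at 153 against 14.4. Pericyte genes were called higher in IEC for 6 of 8 listed, and 1, the receptor Notch3, was called higher in NSC, at 20.3 against 4.32. Rgs5, a regulator of G protein signalling in pericytes, was at 33.5 in IEC and 0.885 in NSC.

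Enteric nerve and pacemaker genes did not form a group in IEC. Of 17 listed, 8 reached FPKM 5 in either library. Of the 17, 1 was called higher in IEC, the factor Hand2, and 4 higher in NSC, beside 13.2% and 6.44% of all genes tested. Kit, the receptor of interstitial cells of Cajal, was at 4.77 in IEC and 7.37 in NSC. Ano1, their chloride channel, was at 6.27 in IEC and 1.12 in NSC and was not called. Ednrb, the endothelin receptor of neural crest and of glia, was at 405 in NSC and 21.2 in IEC. Erbb3, a neuregulin receptor of enteric glia and epithelium, was at 2.06 in IEC and 0.0348 in NSC.

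Macrophage genes were called higher in IEC for 18 of 19 listed and higher in NSC for 0, beside 13.2% and 6.44% of all genes tested. The median was 59.7 in IEC and 0 in NSC, and 12 of the 19 were listed at 0 in NSC. Lyz2, the lysozyme of myeloid cells, was at 2696 (interval 2665 to 2727) in IEC and 0.480 in NSC, and at most 0.550 in the CiPSC and ESC libraries. Csf1r, the growth factor receptor on which macrophages depend, was at 59.7 in IEC and 0.0553 in NSC. The C1q genes C1qa, C1qb and C1qc, made by tissue macrophages, were at 35.7, 103 and 98.6 in IEC and were listed at 0 in NSC. Mrc1, the mannose receptor of resident macrophages, was at 125 in IEC and 0.0393 in NSC. Ptprc, the leukocyte antigen CD45, was at 9.23 in IEC and listed at 0 in NSC. S100a8 and S100a9, abundant in neutrophils, were at 15.1 and 14.6 in IEC, while Mpo, Elane and the other genes listed for mast cells, megakaryocytes and granulocytes were not called. Chemokines and complement, families taken by symbol after the data were seen, were called higher in IEC for 15 of 33 and 12 of 19 genes. Of the 33 and 19 genes, 18 and 12 reached FPKM 5 in either library, and 13.2% of all genes tested were called higher in IEC. The chemokine Ccl25 was the 1 gene of both families called higher in NSC, at 13.3 against 2.56. Saa3, an acute-phase apolipoprotein of macrophages and inflamed tissue, was at 1254 in IEC and 0.318 in NSC. Of the immediate early genes, which dissociation of tissue can induce, 5 of 18 were called higher in IEC and 0 higher in NSC. Of the 18, 15 reached FPKM 5, and 13.2% of all genes tested were called higher in IEC. Fos was at 21.1 in IEC and 9.67 in NSC and was not called, and Atf3, a stress factor, was at 17.5 and 1.63. The part of handling in these levels was not tested.

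Defining markers of several embryonic cell types were at or near 0 in both sources. Of 15 erythroid genes none was called. The globin genes analysed, which do not include Hbb-b1 and Hbb-b2, were listed at 0 in NSC and lay between 0 and 0.255 in IEC, although these have near-identical copies. Endothelial genes were called higher in IEC for 3 of 18 (Ecscr at 14.3, Eng at 12.0 and Erg at 8.41) and higher in NSC for 1. Of the 18, 5 reached FPKM 5, and of all genes tested 13.2% were called higher in IEC and 6.44% higher in NSC. The defining endothelial genes Pecam1 and Cdh5 were at 0.359 and 0.0991 in IEC, and Cldn5 was listed at 0 in both. The gene higher in NSC was Plvap, a vessel wall protein, at 16.0 in NSC and 0.207 in IEC. None of 12 lymphocyte genes and none of 11 gonadal and adrenal genes was called. Lung genes were near 0, with Sftpc listed at 0 in both, and the 1 gene called was Foxj1, a factor of ciliated and ependymal cells, at 16.9 in NSC and 0.233 in IEC. Of 10 listed pluripotency genes, 1 was called, Klf2, at 13.7 in IEC and 1.11 in NSC. Pou5f1, whose regulatory sequence drives the reporter, was at 2.02 (interval 0 to 4.72) in NSC and 0.0810 in IEC, against 848 to 1206 in the CiPSC and ESC libraries.

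Hox genes were detected in IEC and were all at 0 in NSC. These factors are arranged in clusters and are switched on in order along the body axis, with high paralogue groups toward the tail, and are normally silent in the forebrain. Of the 38 analysed 12 were called higher in IEC, beside 13.2% of all genes tested. All 12 were in groups 2 to 8 of the Hoxa and Hoxb clusters. Of 19 genes in groups 2 to 8, 12 reached FPKM 5 in IEC. Of 16 genes in groups 9 to 13, 0 reached FPKM 1, the highest being Hoxb9 at 0.997. Hoxb2 was the highest, at 16.7 (interval 14.5 to 18.8), followed by Hoxa5 at 15.9, and their intervals overlapped. Hoxb8 was at 12.7 and Hoxa7 at 11.2, again with overlapping intervals. The Hoxc and Hoxd clusters were lower, with Hoxc4 at 2.89 and Hoxd8 at 1.58 as their highest members.

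**Figure D4:**
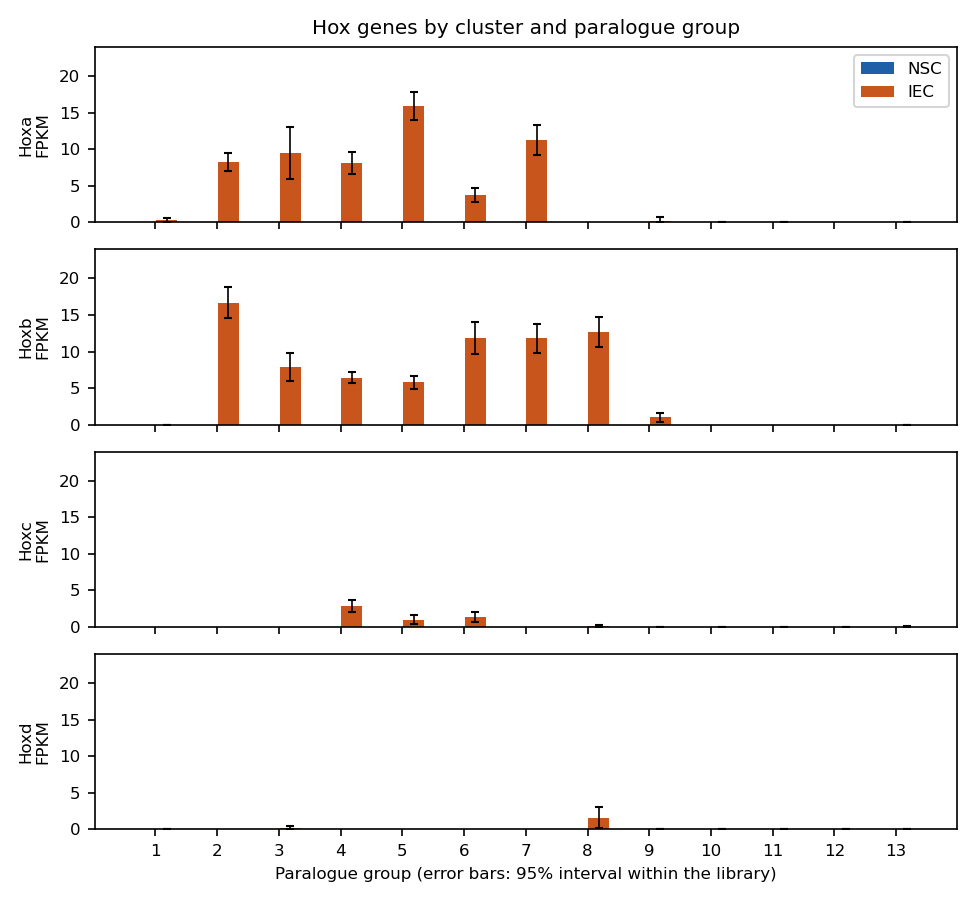
FPKM of Hox genes by cluster (panels) and paralogue group (x axis), with 95% intervals within the library as error bars. Past group 8 every IEC bar (orange) is below FPKM 1, the highest being Hoxb9 at 0.997, and every NSC value is 0, so no blue bar is visible.

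Some secreted signals differed between the sources in either direction. Of 23 hedgehog, Wnt and BMP genes, 15 reached FPKM 5 in either library. Of the 23, 4 were called higher in IEC and 2 higher in NSC, beside 13.2% and 6.44% of all genes tested. With a limit of 2-fold the counts were 5 higher in IEC and 7 higher in NSC, and they were 4 and 4 with a pseudocount of 0.1 and with quantile normalization. Grem1, a BMP antagonist of gut muscle, was at 183 in IEC and 0.154 in NSC. Bmp4, a mesenchymal BMP ligand, was at 43.4 in IEC and 0.142 in NSC. Rspo3 and Wnt2b, Wnt pathway agonists of gut mesenchyme, were at 37.4 and 20.7 in IEC and at 0.0463 and 0.211 in NSC. Wnt7a, a Wnt ligand of the cortex, was at 48.0 in NSC and 0.908 in IEC. Bmp7 was at 23.7 in NSC and 2.03 in IEC. Response genes were closer together, with Axin2, a Wnt target, at 12.2 in NSC and 5.39 in IEC and Id1, a BMP target, at 133 and 65.2. Ihh, the hedgehog ligand of gut epithelium, was at 1.84 in IEC and 0.0453 in NSC.

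Imprinted growth genes were higher in IEC. Of 16 listed, 9 were called higher in IEC and 0 higher in NSC, beside 13.2% and 6.44% of all genes tested. The list's median difference was -2.32. Igf2, the fetal growth factor, was at 1612 in IEC and 0.633 in NSC. Its neighbour H19 had values of 6329.7 and 2.49. Dlk1, a membrane protein of fetal progenitors, was at 1941 in IEC and 6.67 in NSC. Peg3 and Ndn, also imprinted, were closer, at 30.6 and 92.6 in IEC and at 19.6 and 68.0 in NSC. Of 7 insulin-like growth factor binding proteins, 4 were called higher in IEC and 1 higher in NSC. Igfbp2 was at 1827 in NSC and 350.2 in IEC, while Igfbp5 was at 15.8 in NSC and 394 in IEC.

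Enzymes of cholesterol synthesis, a pathway of all dividing cells, were mostly somewhat lower in NSC. Of 15 cholesterol synthesis genes, 1 was called higher in IEC and 0 higher in NSC, beside 13.2% and 6.44% of all genes tested. In all, 13 of 15 differences were toward IEC, with a median of -0.68. Fdps, which makes farnesyl diphosphate, was at 79.5 in NSC and 224 in IEC. Hmgcs1, which makes the precursor HMG-CoA, was at 156 in NSC and 117 in IEC, 1 of 2 differences the other way. Dhcr7, a late enzyme of the pathway, was at 34.8 and 37.7, with overlapping intervals.

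How far the list members were low in the other 6 libraries differed between lists. Of the 24 hepatocyte genes 20 were below FPKM 5 in all of them, as were 22 of 23 exocrine pancreas genes, 17 of 19 macrophage genes and all 38 Hox genes. For radial glia this held for 9 of 20, and Sox2 was among those above it. It held for 4 of 10 genes of cell cycle exit, 3 of 19 basement membrane genes, 2 of 16 imprinted genes, 1 of 22 proliferation genes and none of 15 cholesterol synthesis genes. It held for 3 of 20 general epithelial genes, whose median lay between 5.21 in ESC and 26.5 in NSC-CiPSC line 2, above the 4.13 of IEC. Col1a1 was at 16.7 and 17.0 in IEC-CiPSC lines 10 and 13 and between 1.81 and 3.47 in the NSC-CiPSC lines. Acta2 was at 27.2 and 34.3 in the IEC-CiPSC lines, between 11.3 and 23.0 in the NSC-CiPSC lines and at 2.60 in ESC.

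**Figure D5:**
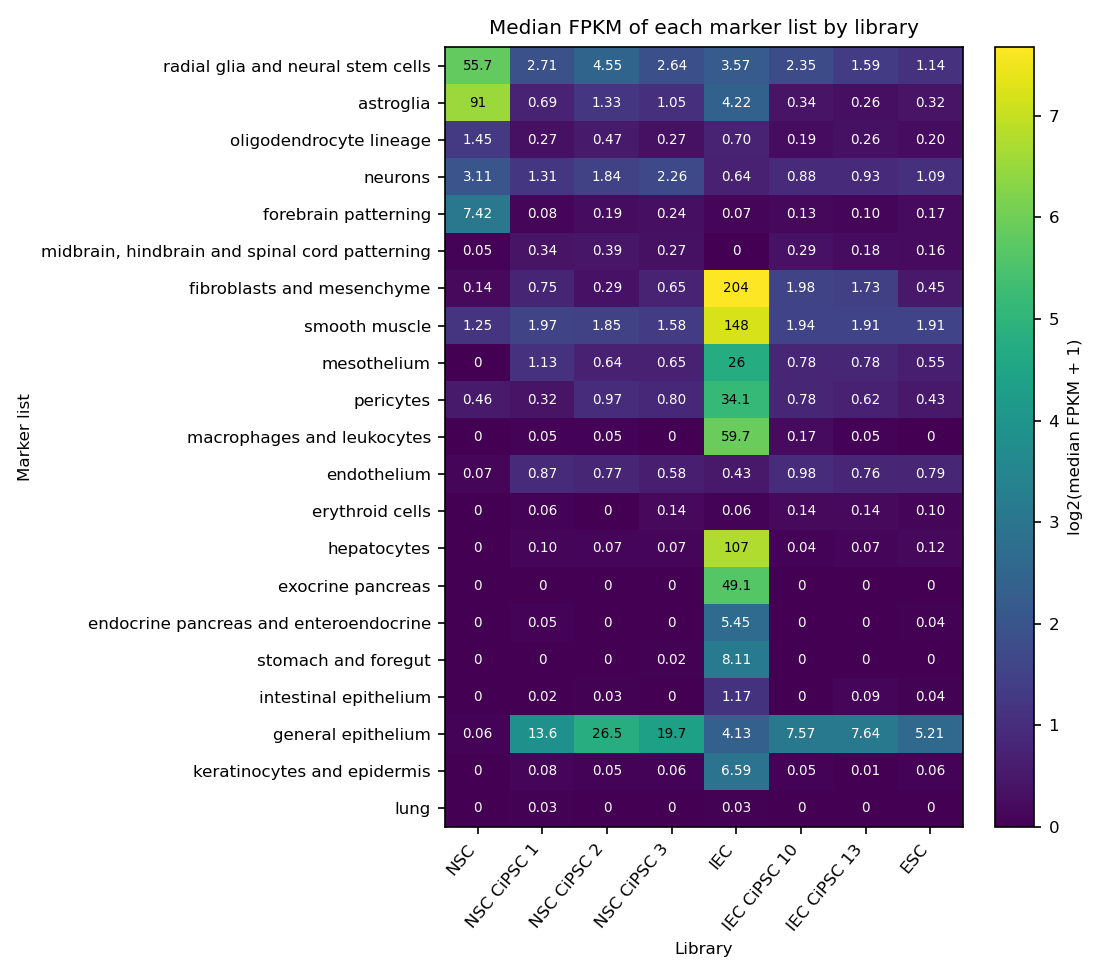
Median FPKM of each marker list (rows) in each of the 8 libraries (columns), coloured by log2(median FPKM + 1) with the median printed. Radial glia (55.7) and astroglia (91.0) stand out in NSC, fibroblasts (204), smooth muscle (148) and hepatocytes (107) in IEC, and general epithelium in the CiPSC lines and ESC.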

How the data were processed

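Per the labels, libraries were made with NEBNext Ultra reagents from total RNA (RNeasy Plus Mini Kit). The authors' deposited values are FPKM with a 95% interval for each gene, computed with Cufflinks after TopHat alignment, genome build mm10, per the submitters' processing notes. Tool versions and the annotation release are not given in the sources used here. Each file held 39009 entries. The 255 off the reference chromosomes were left out, as were the 421 without an OK status in NSC or IEC. Of the rest 37451 matched GENCODE M21 by identifier, and 27 symbols that had become dates were restored. Start positions in the files count from 0 and are given here from 1.

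Depth was estimated from the intervals of low genes on transcripts of at least 3000 bases and ranged from 8.85 to 10.2 M fragments over the 8 libraries. NSC and IEC were compared by size with a pseudocount of 1 and by the intervals, with no test, since each is 1 library. The calling step was tested on simulated data. Marker lists (44, with 685 symbols, of which 671 were found) count every member found, also those below FPKM 5, and a gene can be in several lists. Members and lists were chosen with earlier results of these data known. Named genes are list members, the 15 largest differences each way at FPKM 10 or more, leaving out predicted genes, small RNAs, selenoprotein genes, Y-linked genes and Xist, and the 10 most abundant genes of each library. The 17 gene families, the motifs and genes said so in the text were chosen after the data were seen. Selenoprotein genes (23 symbols) held 7.94% of the FPKM sum in NSC and 10.3% in IEC. Their levels may be inflated, which was not tested, and they are not named. Some genes that the rule would name are not reported here. Promoters were RefSeq windows of GRCm38.p6, the assembly of mm10. Tools were pandas 2.3.3 and NumPy 2.4.6 under Python 3.11.15, with matplotlib 3.10.9 for plots. The 13 alternatives are other fold limits, pseudocounts, filters and scalings.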

Additional observations from a re-analysis of the deposited data

How the results depend on the processing

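The main comparison called 738 genes higher in NSC and 1509 higher in IEC. At a 2-fold limit these were 2191 and 2340, at an 8-fold limit 320 and 952, and with a pseudocount of 5 they were 370 and 726. The share of calls that were higher in IEC was 67.2% in the main comparison, 51.6% at 2-fold and 74.8% at 8-fold. Under the other 10 alternatives, counts lay between 625 and 859 toward NSC and between 1125 and 1723 toward IEC. Of the 44 lists, 12 had more members called toward NSC, 27 toward IEC and 5 as many each way. Over 572 pairs of a list and an alternative, the direction turned in 2, the endothelium list with a pseudocount of 5 (1 toward NSC, 0 toward IEC) and the hedgehog, Wnt and BMP list at 2-fold (7 toward NSC, 5 toward IEC). In 12 it ended level. No paired analysis was possible because each group is 1 library, and no replicate could be left out for the same reason. Genes near 3 fragments, about FPKM 0.2 on a transcript of 1500 bases, are at the limit of detection, and a gene listed at 0 is not shown to be absent.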

Other observations

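Neural factors also lay outside the lists. Zic1, a zinc finger factor of the septum and dorsal neural tube, was at 14.6 in NSC and listed at 0 in IEC. Rab3b, a vesicle trafficking protein, was at 222 in NSC and 1.17 in IEC. In IEC, receptors of smooth muscle and mesenchyme were high, with Agtr2, the angiotensin type 2 receptor of fetal mesenchyme, at 68.7 against 0.0329 in NSC and Chrm2, a muscarinic receptor, at 49.4 against 0.203. Penk, the enkephalin precursor, was at 64.9 in IEC and 0.0817 in NSC. Mgp and Eln, matrix proteins of the vessel and gut wall, were at 598.5 and 839 in IEC and at 0.262 and 7.42 in NSC. Gpnmb and Trem2, genes of lipid-laden macrophages, were at 687 and 123 in IEC, where NSC had 1.44 and 0. All of these except Rab3b were chosen after their values were seen.

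Both sources held transcripts of Xist and of Y-linked genes. Xist was at 6.53 in NSC and 19.7 in IEC, Ddx3y at 8.76 and 9.10, and Eif2s3y at 26.6 and 11.5. Their values are given without a test.

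Some genes were listed at 0 in 1 source while all other libraries were at FPKM 10 or more, 7 genes for NSC and 1 for IEC. The 7 included Apoc1 and Ifitm1.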
